A study of Mus musculus with 56 samples.

Results

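The loci of 8 genes with higher accessibility in GM-CSF were examined peak by peak in clones of mouse granulocyte-monocyte progenitors (GMP). The assay was bulk ATAC-seq, which tags DNA that a transposase can reach, so that counts rise where chromatin is open. The genes Dstn, Agpat2, Jup, Pura, Hivep3, Noct, Fam222b and Adssl1 were chosen by accessibility that was higher in GM-CSF than in SCF control lines, so that this difference is given below as a description, without a test. Their members are all peaks centred in the gene body or within 50 kb of the transcription start site (TSS): 427 of the 297361 peaks of the series, from 22 at Pura to 133 at Hivep3. Every peak is 301 bp long, so that levels can be compared between peaks as CPM (counts scaled to 1000000 counts of a library, with TMM factors).

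The paper's main text describes the clones as coming from a mouse with floxed Tet2 alleles (Tet2 fl/fl). Its reporting summary names Tet2 fl/fl mice as the source of the Hoxb8-ER lines, with lines from male and female animals. The donor and sex of each clone are therefore not known here. The clones were immortalised with Hoxb8-ER, which blocks differentiation while estradiol is present (0.5 µM beta-estradiol). Each grew from 1 cell. Each clone was split into a line that received Cre, called Tet2 KO, and a line that received GFP, called control, both from an integrase-defective lentivirus at a multiplicity of infection of 200, so the controls were transduced as well. Of the clones, 24 pairs of lines (clones 1 to 5, 7 to 18 and 23 to 29) grew with SCF (stem cell factor) at 100 ng/ml, and 4 pairs (clones 19 to 22) grew with GM-CSF at 10 ng/ml, with 1000 cells per library and 56 libraries in all. No clone was grown in both cytokines, so a difference between clones or their donors and a difference between cytokines cannot be told apart. The titles of clones 20, 21 and 22 say SCF, but their treatment entries and the names in the count matrix say GM-CSF, and the latter were followed.

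The libraries held 102302 to 1079233 counts in SCF and 39379 to 766838 in GM-CSF. Clones 19 and 20 were shallow (114885 and 88234 counts in the control lines, 40876 and 39379 in the KO lines), and in those KO lines 1 count stood for 22.6 and 22.0 CPM. No difference beyond counting noise was detected between their control libraries (chi-square test over 2612 peaks with at least 10 counts, p = 0.060). The same test gave p = 0.934 between their KO libraries, over 315 peaks. In all, 11 of the 564 pairs of libraries within groups, these included, showed no difference, and few counts limit the test. Clones 19 and 20 carry separate clone labels and were kept as 2 clones. On the X chromosome, SCF clones 1 to 18 had 1.47 to 1.67% of counts and SCF clones 23 to 29 had 1.13 to 1.40%. The GM-CSF lines had 1.09 to 1.29%. SCF clones 23 to 29 were therefore also used alone as the reference, and calls in KO lines that changed are given below. Whether the X chromosome shares follow the donor or sex of the clones was not tested. Peaks within 10 kb of the TSS of Elane, Spi1, Cebpa and the other 7 myeloid markers summed to 329 to 775 CPM in every library. Those of Cd3e, Cd79a, Pax5, Klf1, Hbb-bt, Epcam and Alb, which mark other cell types, summed to 171 to 478 CPM, most of it at Cd79a and Klf1, and Alb had no count in any GM-CSF line. The progenitor markers Kit and Cd34 averaged 25.5 and 15.3 CPM in GM-CSF against 64.5 and 64.7 CPM in SCF control lines, and Ly6c2 averaged 54.3 against 15.8 CPM. Of the other myeloid markers, Spi1, Csf3r and Itgam were higher and Mpo, Elane, Cebpa and Csf1r lower in GM-CSF control lines (Csf1r 25.2 against 39.0 CPM). Their part in the differences below was not tested, and in bulk libraries fewer cells with an open site and less opening per cell cannot be told apart.

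Accessible chromatin marks promoters, where transcription starts, and distal elements such as enhancers, which bind transcription factors and act over a distance. In myeloid progenitors SCF signals through the receptor Kit, while GM-CSF signals through a receptor coupled to JAK2 and STAT5 and favours growth and maturation of granulocytes and macrophages. The 8 genes have no pathway in common. Dstn encodes destrin, which severs and depolymerises actin filaments, and Jup encodes junction plakoglobin (gamma-catenin), a protein of cell junctions related to beta-catenin. Agpat2 makes phosphatidic acid, a precursor of phospholipids and triglycerides, and Adssl1 encodes an adenylosuccinate synthase, an enzyme of purine nucleotide synthesis. Pura binds purine-rich nucleic acids, Hivep3 is a large zinc finger protein, and Noct (nocturnin) is a phosphatase of NADPH known for its daily rhythm.

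At 4 loci the peak with the largest difference between GM-CSF and SCF control lines, called the lead peak, was not at the promoter. The sequences of these 4 peaks are shown because each held 42.7 to 59.1% of its locus difference and none overlapped an annotated exon. They are the central 299 bases of each peak, on the plus strand of GRCm38 (mm10) from the RefSeq genome sequence. Capitals mark matches on either strand to consensus motifs of PU.1 (AGGAAGT), C/EBP (TTGCNNAA), RUNX (TGTGGT), AP-1 (TGANTCA) and STAT (TTCNNNGAA).
Noct, 14.35 kb upstream of the TSS, intergenic, chr3:51209948-51210246: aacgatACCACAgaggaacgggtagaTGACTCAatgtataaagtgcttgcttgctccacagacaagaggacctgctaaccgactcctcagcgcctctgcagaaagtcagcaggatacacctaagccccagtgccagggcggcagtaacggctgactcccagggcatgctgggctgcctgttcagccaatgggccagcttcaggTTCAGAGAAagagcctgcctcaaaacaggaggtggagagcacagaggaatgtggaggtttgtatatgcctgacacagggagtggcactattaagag
Adssl1, 9.438 kb downstream of the TSS, intron, chr12:112629334-112629632: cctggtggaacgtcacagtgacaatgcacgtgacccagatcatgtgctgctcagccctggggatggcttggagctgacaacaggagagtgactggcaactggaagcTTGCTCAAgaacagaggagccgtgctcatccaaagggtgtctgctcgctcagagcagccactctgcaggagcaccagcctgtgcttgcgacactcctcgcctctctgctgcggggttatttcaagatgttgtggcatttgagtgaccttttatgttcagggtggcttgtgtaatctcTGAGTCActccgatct
Fam222b, 32.274 kb downstream of the TSS, intron, chr11:78126785-78127083: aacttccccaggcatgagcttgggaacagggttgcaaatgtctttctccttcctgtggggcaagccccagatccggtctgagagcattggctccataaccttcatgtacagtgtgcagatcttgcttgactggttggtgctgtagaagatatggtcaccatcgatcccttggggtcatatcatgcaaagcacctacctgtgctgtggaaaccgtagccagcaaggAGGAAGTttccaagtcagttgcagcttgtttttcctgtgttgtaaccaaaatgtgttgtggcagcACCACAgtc
Hivep3, 233.122 kb downstream of the TSS, intron, chr4:119966757-119967055: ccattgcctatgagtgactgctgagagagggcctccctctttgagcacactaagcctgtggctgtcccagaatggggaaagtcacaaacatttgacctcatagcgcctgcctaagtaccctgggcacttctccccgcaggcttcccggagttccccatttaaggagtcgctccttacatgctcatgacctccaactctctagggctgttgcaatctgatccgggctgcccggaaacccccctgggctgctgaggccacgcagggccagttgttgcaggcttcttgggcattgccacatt

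The whole Noct peak held 1 match each to the RUNX, AP-1 and STAT motifs. The Adssl1 peak held a C/EBP and an AP-1 match, and the Fam222b peak a PU.1 and a RUNX match. The Hivep3 peak held none of these, nor of those bound by GATA factors (AGATAA), NF-kB (GGGANTTCC), KLF (GGGTGTGG) or CRE (TGACGTCA). Matches to PU.1 occur in 17.7% of all peaks, to C/EBP in 13.3%, to RUNX in 28.3%, to AP-1 in 12.2% and to STAT in 8.74%, so a match is a description of the sequence only. No carrying peak (defined below) had a GATA, NF-kB, KLF or CRE match, which occur in 12.6%, 2.00%, 3.85% and 0.537% of all peaks. The 4 distal lead peaks had 50.2 to 56.8% GC and 3 to 8 CpG sites, against medians of 49.8% and 4 for peaks away from promoters. Fam222b (50.2%, 3 sites) was near these medians. Noct (54.2%, 6 sites), Adssl1 (55.1%, 8 sites) and Hivep3 (56.8%, 7 sites) lay above them. The lead peaks of Dstn, Agpat2, Jup and Pura, at promoters, had 64.5 to 76.7% GC and 18 to 51 CpG sites, above the promoter medians of 56.8% and 10.

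A peak was said to carry the difference where the mean of the 4 GM-CSF control lines was at least 2 times the mean of the 24 SCF control lines and at least 10 CPM above it. Of the 427 members, 16 did so, and 0.709% of all peaks did, but the loci were chosen for a difference of this kind. All but 3 of the 16 lay more than 1 kb from any TSS, 9 were intronic, 6 intergenic and 1 in a UTR of Dstn. Of all 427 members, 42 lay within 1 kb of a TSS, 260 were intronic, 121 intergenic and 16 in a UTR, so most members were distal as well. Just inside the rule were the Fam222b peak 34.2 kb upstream (15.9 against 4.63 CPM) and the Pura promoter (2.34-fold). Just outside it were an Adssl1 peak 2.66 kb upstream (1.99-fold) and the Jup promoter (1.98-fold), which is the lead peak of its locus all the same, as is the Agpat2 promoter (1.80-fold). Most members were faint, with exceptions up to 138 CPM in GM-CSF control lines among those that did not carry. The median of all members was 1.56 CPM in SCF and 2.36 CPM in GM-CSF control lines and 33 counts over all 56 libraries. Of the 427 means, 228 were higher and 199 lower in GM-CSF control lines, where 40.5% of all peaks had the higher mean in GM-CSF.

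**Figure D1:**
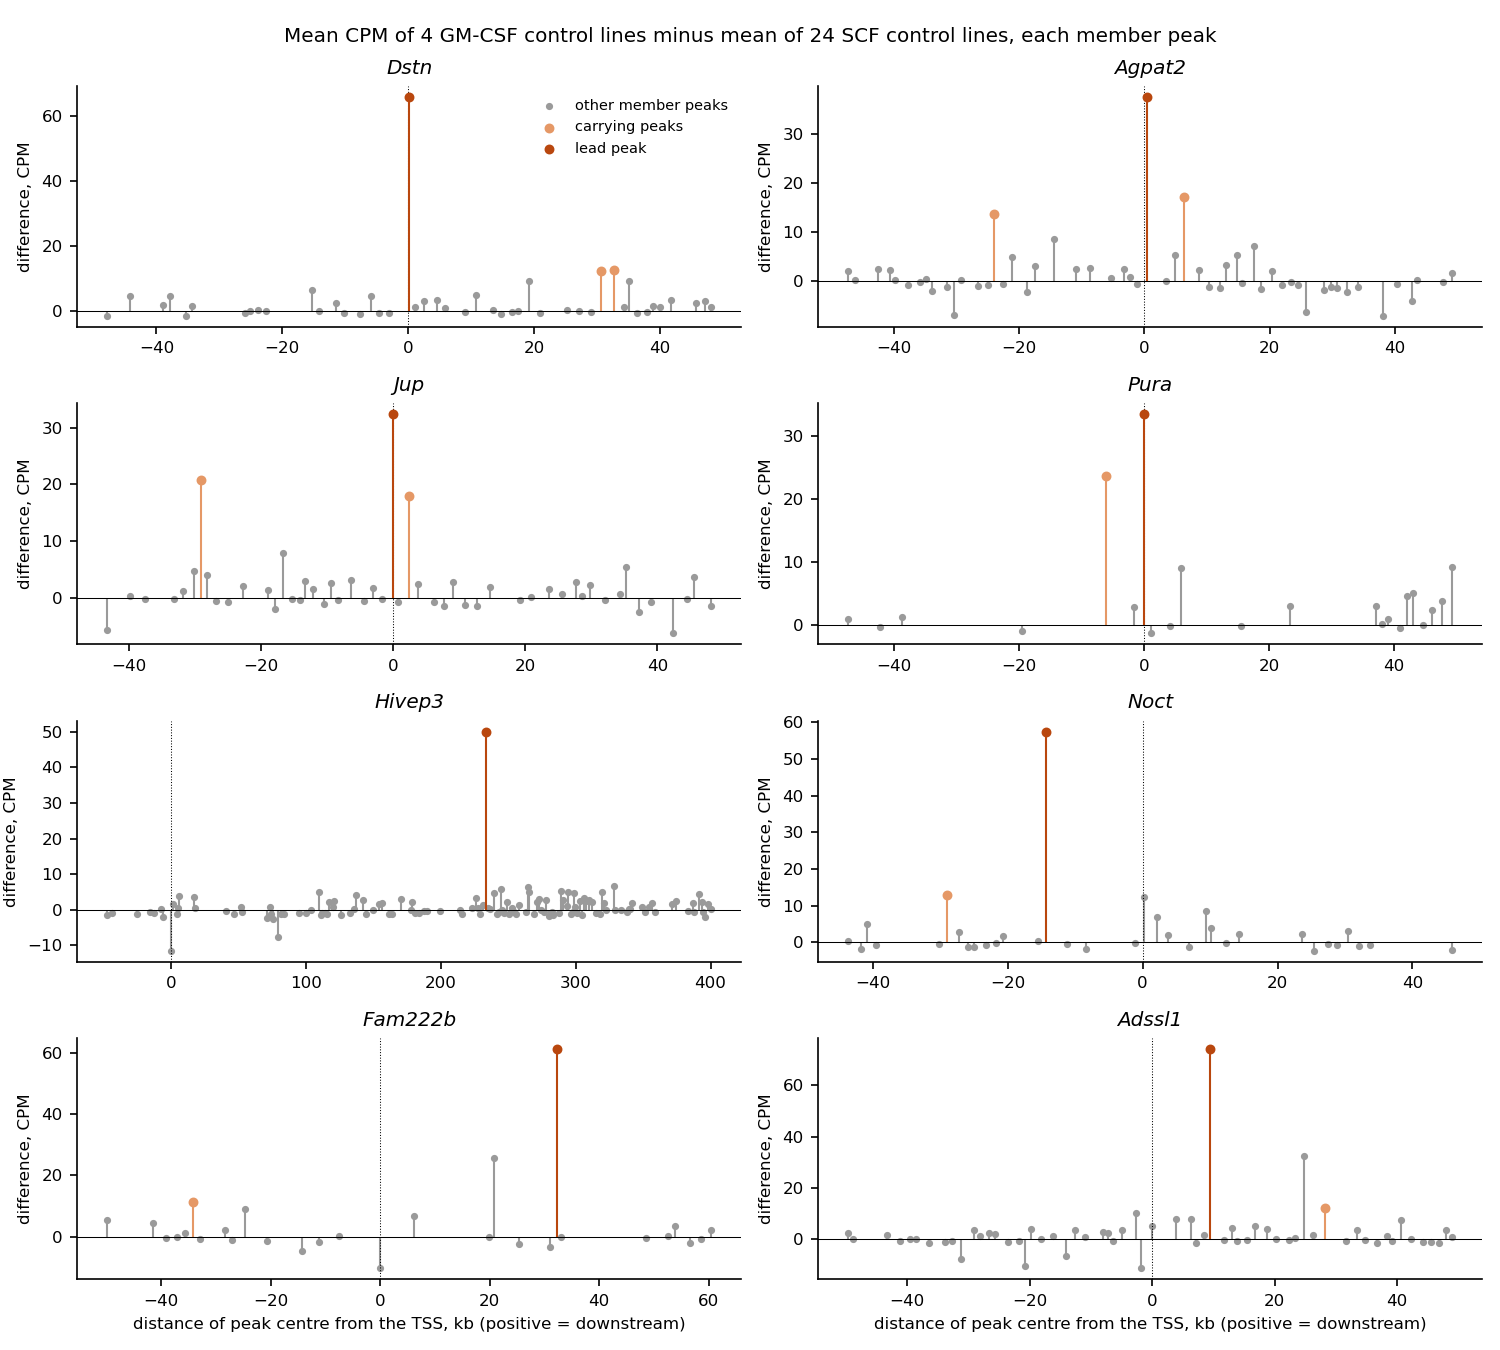
Difference in mean CPM between the 4 GM-CSF and the 24 SCF control lines (vertical axis) for each member peak against the distance of its centre from the TSS in kb (horizontal axis, positive downstream). At Dstn, Agpat2, Jup and Pura the tallest stem stands at the TSS, and at Hivep3, Noct, Fam222b and Adssl1 it stands 9.44 to 233 kb away.

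The lead peak alone made up 33.2% of the net locus difference at Jup, 33.6% at Pura, 42.0% at Dstn and 46.7% at Agpat2. At the other loci it made up 42.7% at Hivep3, 48.4% at Adssl1, 54.5% at Noct and 59.1% at Fam222b. These shares varied between GM-CSF lines (SD 6.15 percentage points at Jup, 25.4 at Adssl1 and 128 at Hivep3, n = 4). Without the shallow clones 19 and 20, the lead peak held 74.8% at Adssl1 and 91.5% at Hivep3, while at the other 6 loci the share stayed between 30.7 and 68.9%. In KO lines, which did not choose the lead peaks, these peaks made up 18.7% of the locus difference at Agpat2, 26.3% at Jup and 31.2% at Hivep3. They made up 56.9% at Dstn, 66.2% at Fam222b, 71.6% at Adssl1, 79.7% at Noct and 115% at Pura. These shares use plain means of the lines, the shallow clones 19 and 20 included. At Pura the locus means were close (141 CPM in GM-CSF and 124 CPM in SCF KO lines). In the KO line of clone 19 the Pura promoter held all 67.8 CPM of the locus, so the share there rests on lines with few counts. In control lines, lead and carrying peaks together held 42.7% (Hivep3, where no other peak carried) to 85.1% (Agpat2) of the difference.

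**Figure D2:**
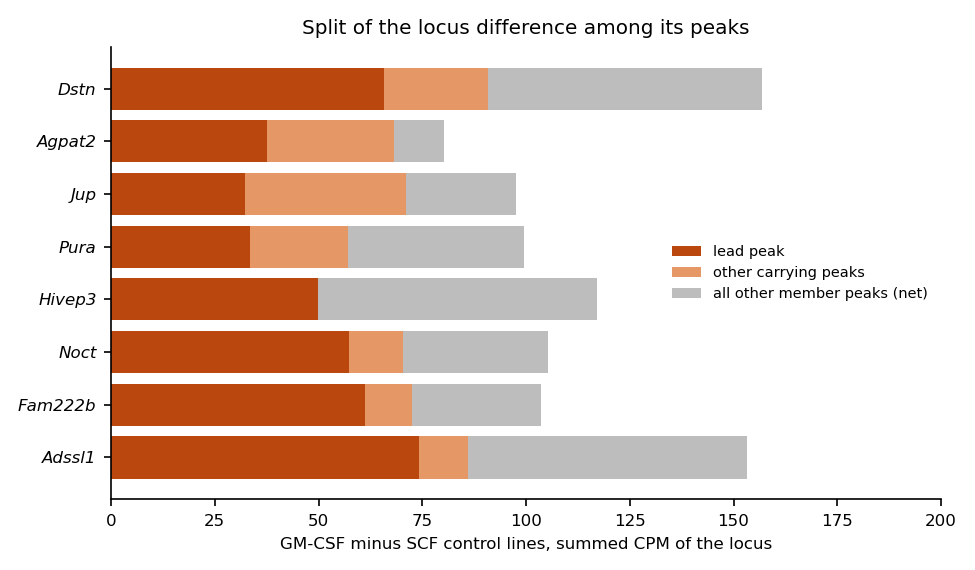
Locus difference between GM-CSF and SCF control lines in summed CPM (bar length) split into the lead peak, the other carrying peaks and the net sum of all remaining members, for each gene. The remainder is largest at Hivep3, Dstn and Adssl1 and smallest at Agpat2.

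Dstn was led by its promoter (chr2:143915310-143915610, centred 140 bp downstream of the TSS), which overlaps an exon and its UTR. In GM-CSF control lines of clones 19, 20, 21 and 22 it stood at 132, 116, 89.9 and 90.6 CPM, and in the 24 SCF control lines at 20.3 to 59.4 CPM (median 41.0). All 4 GM-CSF lines lay above every SCF line, 2.60-fold on the means (107 ± 20.5 and 41.2 ± 9.63, SD). Levels in KO lines were 45.2, 198, 108 and 103 CPM in GM-CSF, where clones 19 and 20 rest on 2 and 9 counts, and at 18.1 to 60.7 CPM (median 40.2) in SCF. Clone 19 fell within the SCF range and the other 3 above it. The other carrying peaks of the locus, 30.6 kb downstream and 32.7 kb downstream in an intron of Rrbp1, rested on 13 and 14 counts over the 4 GM-CSF control lines. Pooled over lines they reached 8.92 and 9.61 CPM against 1.93 and 1.65 CPM in SCF, short of the 10 CPM rule.

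Agpat2 was led by a peak 498 bp downstream of the TSS (chr2:26603769-26604069). The GM-CSF control lines stood at 113, 64.2, 64.5 and 95.9 CPM and the SCF control lines at 28.2 to 72.3 CPM (median 43.7). Clones 19 and 22 lay above all SCF lines and clones 20 and 21 among them. The KO lines stood at 45.2, 43.9, 58.4 and 83.6 CPM in GM-CSF and at 19.4 to 63.0 CPM (median 45.5) in SCF, and 1 of the 4 exceeded every SCF line. A carrying peak in an Agpat2 intron 6.38 kb downstream (chr2:26597889-26598189) was near zero in SCF, with 0 to 4.63 CPM and counts in 12 of 24 control lines. It stood at 28.3, 12.8, 19.5 and 13.1 CPM in the GM-CSF control lines, all above the SCF lines. In KO lines it stood at 0, 43.9, 22.4 and 19.7 CPM in GM-CSF and at 0 to 10.3 CPM in SCF. The last carrying peak lay 24.0 kb upstream, 4 bp from the TSS of the neighbouring gene Fam69b, and averaged 20.9 ± 4.47 CPM in GM-CSF and 7.25 ± 4.65 CPM in SCF control lines (SD, n = 4 and 24). Since 3 other TSSs (Egfl7, Gm20532 and Fam69b) lie in the window, not every peak belongs to Agpat2 alone.

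Jup was led by its promoter (chr11:100397718-100398018, 105 bp upstream). The GM-CSF control lines stood at 75.4, 64.2, 64.5 and 57.8 CPM and the SCF control lines at 14.1 to 60.9 CPM (median 30.6). Clone 22 fell within the upper SCF range and the other 3 above it. The KO lines stood at 45.2, 22.0, 76.3 and 63.9 CPM in GM-CSF and at 13.5 to 58.4 CPM (median 29.0) in SCF, so that the shallow clones 19 and 20, with 2 and 1 counts, overlapped with SCF. An intronic peak 2.3 kb downstream (chr11:100395313-100395613) lay above all SCF lines in both genotypes, but on 1 count in the control line of clone 20 and in the KO lines of clones 19 and 20. It stood at 28.3, 12.8, 25.4 and 19.7 CPM in GM-CSF control lines against 0 to 11.4 CPM in SCF, and at 22.6, 22.0, 22.4 and 12.3 CPM in GM-CSF KO lines against 0 to 11.5 CPM. A peak 29.1 kb upstream, in an intron of Nt5c3b and 11.1 kb from the nearest TSS, that of Fkbp10, averaged 23.4 ± 12.5 CPM in GM-CSF and 2.64 ± 2.88 CPM in SCF control lines (SD). The window also holds the TSSs of Hap1, P3h4, Fkbp10, Nt5c3b and Klhl10.

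Pura was led by its promoter (chr18:36280882-36281182, 65 bp upstream), with 66.0, 64.2, 54.7 and 48.6 CPM in GM-CSF and 8.54 to 60.9 CPM (median 23.8) in SCF control lines. Only the control line of SCF clone 3 reached the GM-CSF levels, in a library of 213996 counts. In KO lines it stood at 67.8, 0, 56.1 and 51.6 CPM in GM-CSF, the 0 in clone 20, and at 9.71 to 40.8 CPM (median 22.6) in SCF. The carrying peak 6.09 kb upstream (chr18:36274853-36275153) stood at 18.9, 38.5, 35.2 and 35.5 CPM in GM-CSF control lines. In SCF control lines it ranged from 0 to 35.9 CPM (median 4.85), with a mean of 10.6 CPM in clones 1 to 18 and 2.81 CPM in clones 23 to 29. In GM-CSF KO lines it stood at 0, 22.0, 33.7 and 29.5 CPM, where the 0 is clone 19, and in SCF KO lines at 0 to 58.8 CPM (median 3.70). The top of the SCF range came from 4 clones, described below.

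Noct was led by the intergenic peak 14.35 kb upstream shown above (chr3:51209947-51210247). The GM-CSF control lines stood close together at 75.4, 64.2, 74.3 and 78.8 CPM, and the SCF control lines at 1.98 to 32.2 CPM (median 13.4), with no overlap. The KO lines stood at 45.2, 87.8, 96.5 and 76.2 CPM in GM-CSF and at 0 to 29.1 CPM (median 9.50) in SCF, again with no overlap. The Noct promoter (183 bp downstream of the TSS) differed far less, with 49.7 ± 5.36 and 37.5 ± 7.77 CPM in control lines and 32.4 ± 12.9 and 39.0 ± 12.6 CPM in KO lines (GM-CSF and SCF, SD, n = 4 and 24). A further carrying peak 29.0 kb upstream, with 1 C/EBP and 3 AP-1 matches, averaged 16.4 ± 5.86 CPM in GM-CSF and 3.54 ± 3.35 CPM in SCF control lines. No TSS of another coding gene lies within 50 kb of that of Noct.

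Adssl1 was led by the intronic peak 9.44 kb downstream (chr12:112629333-112629633). It stood at 123, 103, 123 and 122 CPM in GM-CSF control lines and at 21.9 to 112 CPM (median 39.5) in SCF control lines, of which only clone 3 came within the GM-CSF range. The KO lines stood at 90.4, 110, 128 and 120 CPM in GM-CSF and at 6.71 to 69.0 CPM (median 38.6) in SCF, with no overlap. The Adssl1 promoter, 117 bp upstream, had 50.0 ± 2.44 and 45.0 ± 13.8 CPM in GM-CSF and SCF control lines (SD). The next largest difference of the locus was at the Siva1 promoter 24.7 kb downstream, with 138 and 105 CPM, too small a fold to carry. The locus also held peaks that were lower in GM-CSF control lines, the largest 1.84 kb upstream (7.67 against 19.2 CPM). The carrying peak 28.2 kb downstream lay in an intron of Siva1, 3.25 kb from its TSS, and rested on 15 counts in GM-CSF control lines.

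Fam222b was led by the intronic peak 32.3 kb downstream (chr11:78126784-78127084). It stood at 56.6, 116, 37.1 and 74.9 CPM in GM-CSF control lines and at 0 to 30.5 CPM (median 8.09) in SCF control lines, with no overlap. In KO lines it stood at 0, 65.9, 53.9 and 66.3 CPM in GM-CSF and at 0 to 27.5 CPM (median 7.61) in SCF. The KO line of clone 19 had no count there, and 1 count would have given it 22.6 CPM. The peak at the annotated TSS went the other way in control lines, with 2.62 ± 3.21 CPM in GM-CSF and 12.9 ± 7.47 CPM in SCF (SD), on 7 counts in GM-CSF. The KO lines had 15.2 and 13.3 CPM. A stronger peak in the gene body, 20.8 kb downstream and within 1 kb of another annotated TSS, was named after its values were seen and had 65.0 and 39.2 CPM in control lines. The carrying peak 34.2 kb upstream owed its mean to clone 20 (38.5 CPM from 3 counts) and had 2.40 CPM in GM-CSF KO lines.

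Hivep3 showed the widest ratio. Its lead peak, 233 kb downstream in an intron (chr4:119966756-119967056), stood at 37.7, 89.9, 37.1 and 44.7 CPM in GM-CSF control lines and at 0 to 10.9 CPM (median 1.26) in SCF control lines, of which 13 of 24 had a count. In KO lines it stood at 22.6, 43.9, 49.4 and 51.6 CPM in GM-CSF and at 0 to 10.3 CPM (median 1.79) in SCF. No GM-CSF line overlapped with SCF in either genotype, and the means differed 21.9-fold and 18.5-fold. The Hivep3 promoter, 90 bp upstream, had 50.7 ± 11.2 CPM in GM-CSF and 62.2 ± 13.3 CPM in SCF control lines (SD), and 62.5 ± 10.6 and 66.9 ± 18.0 CPM in KO lines.

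**Figure D3:**
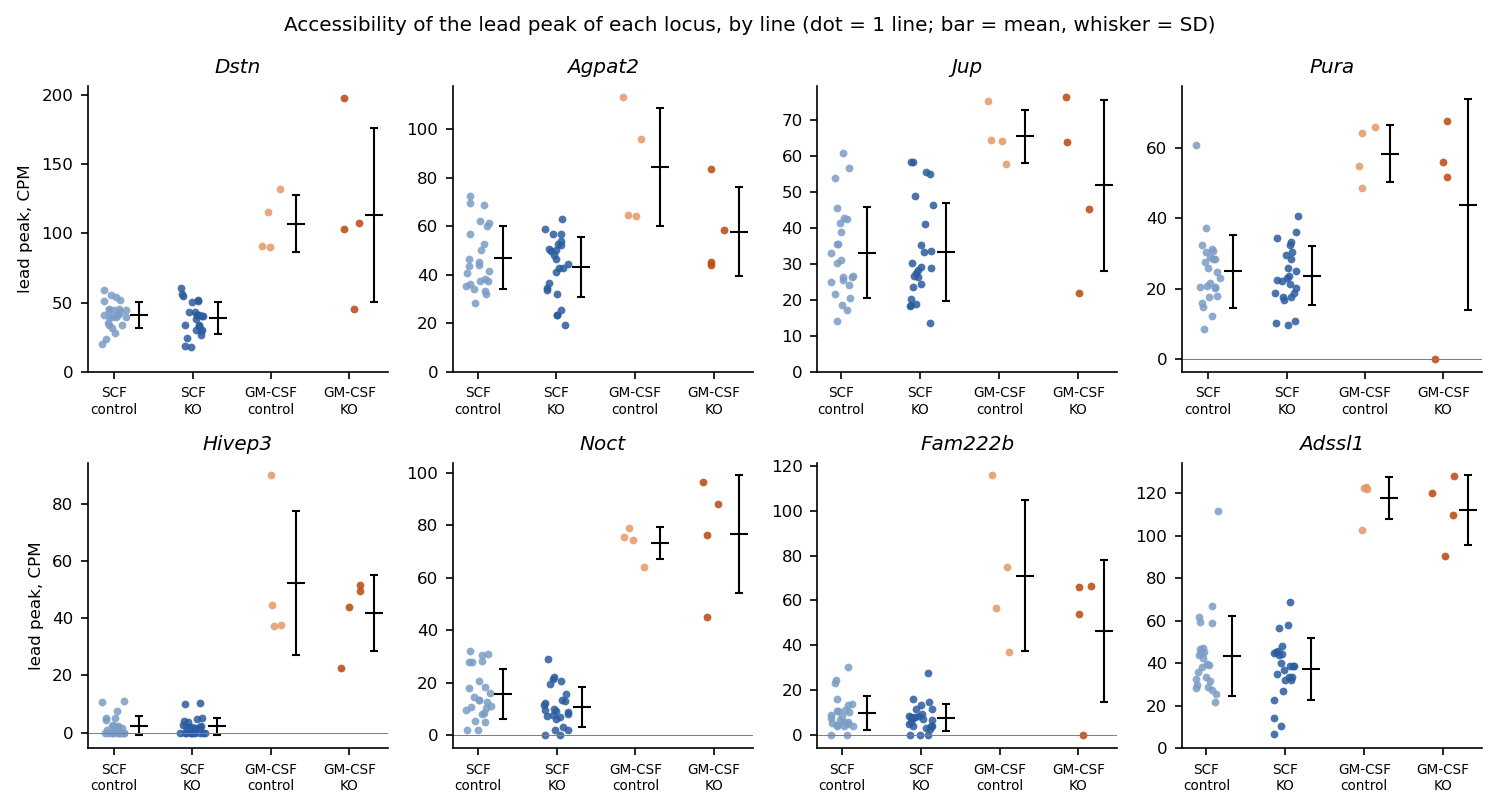
CPM of the lead peak (vertical axis) in each line, for SCF control (24), SCF KO (24), GM-CSF control (4) and GM-CSF KO (4) lines; dots are lines, bars means and whiskers SD. GM-CSF control lines lie above all SCF control lines at Dstn, Hivep3, Noct and Fam222b, and the Hivep3, Noct and Adssl1 peaks also separate the KO lines.

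Among the lead peaks, Dstn, Hivep3, Noct and Fam222b had all 4 GM-CSF control lines above every SCF control line, as 0.172% of all peaks did. The loci were chosen for a cytokine difference of this kind. Hivep3, Noct and Adssl1 had all 4 GM-CSF KO lines above every SCF KO line, against 0.0545% of all peaks.

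The KO lines give the one test of the cytokine difference, on libraries outside the control-line contrast that set the lead and carrying peaks. Whether KO lines also entered the choice of the loci is not known. The KO lines are sister lines of the same clones and add no new clones. The genes were also chosen with earlier results of these data known, so the test may not be independent of that choice. In an edgeR quasi-likelihood test of GM-CSF against SCF KO lines, 16 member peaks passed the filter on low counts, 14 of which would pass on the SCF lines alone. Of these 14, 4 were higher in GM-CSF at an adjusted p of at most 0.01, where 2.75% of all 9670 peaks tested were, and all 4 were lead peaks. Adssl1 differed by 1.67 ± 0.19 on the log2 scale (SE here and below, adjusted p = 3.85e-13) and Dstn by 1.54 ± 0.19 (adjusted p = 2.84e-11). Pura differed by 1.14 ± 0.27 (adjusted p = 0.00054) and Jup by 1.02 ± 0.24 (adjusted p = 0.000465). The Noct lead peak passed the filter only through the GM-CSF lines where it is high, so its difference of 3.04 ± 0.31 is given as a description.

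The fit weighs lines by depth, so these differences rest mainly on clones 21 and 22: pooled over lines, the Jup promoter had 66.9 and 34.5 CPM in GM-CSF and SCF KO lines. Agpat2 (0.66 ± 0.22, adjusted p = 0.0219) and the Fam222b peak 20.8 kb downstream (0.65 ± 0.23, adjusted p = 0.0388) missed the threshold. The lead peaks of Hivep3 and Fam222b were too shallow for the filter in KO lines. With the minimum count lowered from 10 to 3, the lead peaks of Noct and Fam222b also passed the filter in the SCF lines alone. Noct then differed by 2.92 ± 0.28 (adjusted p = 5.13e-22) and Fam222b by 2.80 ± 0.33 (adjusted p = 3.89e-14). The difference was 4.24 ± 0.42 at the Hivep3 lead peak, 1.86 ± 0.51 at the Jup intronic peak and 1.71 ± 0.39 at the Pura peak 6.09 kb upstream. These peaks did not pass that filter in the SCF lines alone, so their differences are descriptions. At the Pura peak, 4 SCF clones were high as well, as described below.

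The promoters of Noct, Adssl1 and Hivep3, whose lead peaks are distal, did not pass the test in KO lines. The log2 difference was 0.12 ± 0.26 at Noct (adjusted p = 0.814), 0.28 ± 0.25 at Adssl1 (adjusted p = 0.490) and -0.04 ± 0.22 at Hivep3 (adjusted p = 0.931), with 95% intervals from -0.39 to 0.63, -0.20 to 0.76 and -0.47 to 0.38. The interval of the Adssl1 lead peak (1.30 to 2.04) lay above that of its promoter. At Fam222b, the TSS peak was too shallow for the filter (-0.53 ± 0.50 with a minimum count of 3, adjusted p = 0.550), and the peak 20.8 kb downstream had an interval of 0.19 to 1.11. With SCF clones 23 to 29 as the reference, the Jup lead peak differed by 0.71 ± 0.25 and missed the threshold (adjusted p = 0.0392), while Adssl1, Dstn and Pura (1.32 ± 0.32, adjusted p = 0.000752) passed. The calls at Jup and Pura also needed both deeper clones. Without clone 21 the adjusted p was 0.114 at Jup and 0.0616 at Pura, and without clone 22 it was 0.0136 and 0.0205. The calls at Adssl1 and Dstn held without any 1 of the GM-CSF clones.

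Summed over all members of a locus, GM-CSF KO lines were higher at 6 of 8 loci at an adjusted p under 0.05, where 5.88% of 16794 loci were. Dstn differed most, with 203, 220, 245 and 246 CPM in GM-CSF and 59.1 to 213 CPM (median 90.7) in SCF KO lines, a log2 difference of 1.30 ± 0.14 (adjusted p = 1.85e-11). Noct followed with 158, 176, 229 and 206 CPM against 78.5 to 175 CPM (0.85 ± 0.14, adjusted p = 3.02e-06), and Fam222b with 113, 176, 195 and 214 CPM against 76.2 to 213 CPM (0.68 ± 0.13, adjusted p = 0.000108). Jup differed by 0.59 ± 0.13 (adjusted p = 0.000733), Hivep3 by 0.42 ± 0.13 (adjusted p = 0.0173) and Adssl1 by 0.35 ± 0.09 (adjusted p = 0.00464). Agpat2 (0.24 ± 0.11, adjusted p = 0.140) and Pura (0.31 ± 0.15, adjusted p = 0.162) did not pass. Each passed under 2 of 13 alternatives, 1 of them the 10 kb window given below. Of the other gained calls, 1 came with SCF clones 23 to 29 as the reference and 1 with promoter share as a covariate. The call was lost at Hivep3 without clone 19 (adjusted p = 0.0525) or clone 22 (adjusted p = 0.101), at Jup without clone 22 (adjusted p = 0.0822) and at Adssl1 without clone 21 (adjusted p = 0.137). The median of the 8 was 0.50, against -0.01 over all loci tested.

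In control lines, where no test is given, the locus differences were 1.26 at Dstn, 0.88 at Noct, 0.69 at Pura, 0.64 at Fam222b, 0.62 at Jup, 0.38 at Adssl1, 0.37 at Hivep3 and 0.26 at Agpat2 on the log2 scale. The window decided several of them. With peaks within 10 kb of the TSS alone, which leaves out the lead peaks of Noct, Fam222b and Hivep3, the difference in control lines was 0.41 at Noct, -0.29 at Fam222b and -0.17 at Hivep3. It was 0.98 at Agpat2 and 0.74 at Adssl1, whose lead peaks lie within 10 kb. In KO lines the 10 kb sums gave 0.08 at Noct (adjusted p = 0.868) and -0.20 at Hivep3 (adjusted p = 0.610), and Agpat2 (0.67, adjusted p = 0.00483) and Pura (0.71, adjusted p = 0.00282) then passed.

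**Figure D4:**
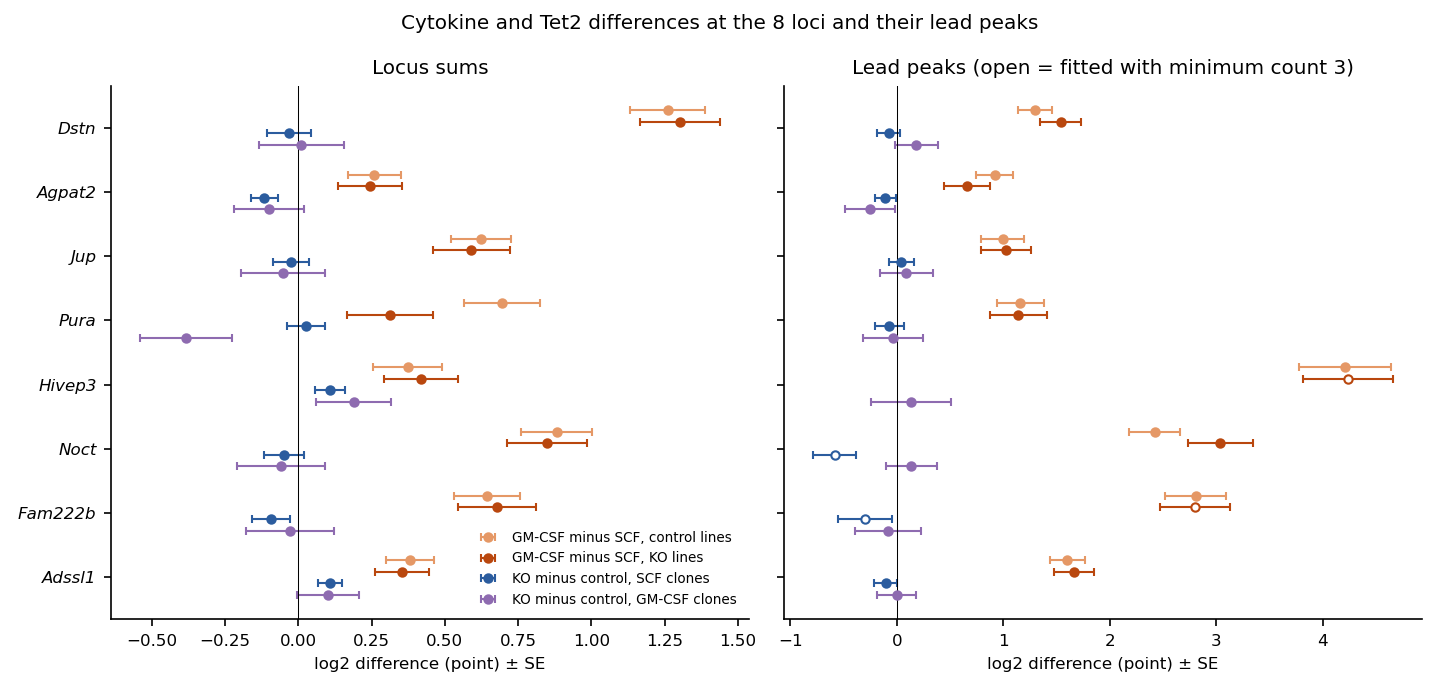
Log2 differences with SE (horizontal axis) for the 8 locus sums (left) and lead peaks (right): GM-CSF minus SCF in control and in KO lines, and Tet2 KO minus control in SCF and in GM-CSF clones. Cytokine differences lie right of zero at every locus, from 0.24 to 1.30, and Tet2 differences of the locus sums lie between -0.38 and 0.19.

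No member was called for Tet2 loss. With so few members and the shares over all features given here, 0 calls say little about them. In the 24 SCF pairs, 14 member peaks were tested with the clone as a block and 0 passed, against 2.5% of all peaks tested, although 2 of the 14 had an unadjusted p under 0.05. DESeq2 also called 0, but gave an adjusted p for only 2 of the 14. None of the 8 locus sums passed, against 4.46% of all loci, and DESeq2 called 0 of the 7 for which it gave an adjusted p. By edgeR, 3 had an unadjusted p under 0.05, namely Agpat2 (-0.12 ± 0.05, adjusted p = 0.129), Adssl1 (0.11 ± 0.04, adjusted p = 0.105) and Hivep3 (0.11 ± 0.05, adjusted p = 0.235). The member peak nearest to a call was the Siva1 promoter in the Adssl1 window, 24.7 kb downstream (0.22 ± 0.07, adjusted p = 0.0494). For the promoter lead peaks the 95% intervals of the KO effect were -0.29 to 0.13 at Dstn, -0.31 to 0.09 at Agpat2, -0.19 to 0.27 at Jup and -0.34 to 0.20 at Pura. The Adssl1 lead peak gave -0.32 to 0.10. The Noct lead peak, testable only with the minimum count of 3, had a KO effect of -0.59 ± 0.20 (adjusted p = 0.100). It was lower in the KO line of 17 of 24 pairs, with means of 15.8 and 10.8 CPM. That count does not set Noct apart, since the lead peak was lower in 17 pairs at Dstn and in 16 at Agpat2 and Fam222b. The remaining lead peaks were lower in 10 to 14 pairs.

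In the 4 GM-CSF pairs, 23 member peaks and 8 loci were tested in a fit of all 56 libraries, and 0 passed by edgeR or DESeq2, with 2 peaks and 1 locus at an unadjusted p under 0.05 by edgeR. Of all peaks tested, 0.00806% passed, and of all loci 0%. The locus was Pura, at 273, 206, 238 and 190 CPM in the control lines and 67.8, 154, 182 and 162 CPM in the KO lines of clones 19 to 22, lower in every KO line (-0.38 ± 0.16, adjusted p = 0.994). Its promoter differed by -0.04 ± 0.28. The 2 peaks were one 5.96 kb from the Pura TSS (-0.68 ± 0.32, adjusted p = 0.775) and the Siva1 promoter (0.44 ± 0.20, adjusted p = 0.758). The difference of the Tet2 effect between GM-CSF and SCF clones, the interaction term, passed at 0 members by either tool, as at 0% of all peaks and 0% of all loci. The lowest unadjusted p-values were those of the Pura locus (-0.41 ± 0.17, adjusted p = 1.00) and of the Noct lead peak (0.75 ± 0.31, adjusted p = 0.994).

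Because both lines of a clone descend from 1 cell, the SCF pairs show whether a peak differs between clones in a stable way, a property the choice of loci did not use. Over the 24 SCF pairs, CPM of the control line and of the KO line were compared at each of the 22 peaks named here. At the Noct lead peak they correlated (Pearson r = 0.64, permutation p = 0.00094; Spearman rho = 0.65, permutation p = 0.00075; both two-sided and not adjusted for the 22 relations). Without the 2 clones farthest from the median r was 0.66, and within clones 1 to 18 and 23 to 29 it was 0.51 (n = 17) and 0.86 (n = 7). Of the 18628 peaks with a mean of at least 8 CPM in SCF lines, 0.687% had an r this high, and their median r was 0.08. The SCF clones thus ranged from 1.98 to 32.2 CPM at this peak in the control line, and clones high in one line tended to be high in the other, while the lowest GM-CSF control line had 64.2 CPM.

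The Pura peak 6.09 kb upstream was open in both lines of 4 SCF clones and lower in the other 20. Clone 1 had 33.6 CPM in the control and 58.8 CPM in the KO line. Clone 17 had 35.9 and 42.4 CPM, clone 3 had 30.5 and 20.6 CPM, and clone 18 had 22.2 and 24.8 CPM. These 8 lines lay in or above the range of the GM-CSF control lines (18.9 to 38.5 CPM), and no line of the other 20 clones exceeded 15.6 CPM. The means of those 20 were 3.91 CPM in control and 3.97 CPM in KO lines, and between their sister lines r was 0.18. All 4 clones belong to clones 1 to 18, and the peak in clone 3 rests on 6 and 2 counts. With the 4 clones set apart no r is given for all 24, which would rest on them.

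The lead peaks of Dstn, Hivep3, Fam222b, Adssl1 and Pura had r between -0.16 and 0.04 between sister lines, Agpat2 0.22 and Jup 0.43 (permutation p = 0.0359, not adjusted). Without the 2 clones farthest from the median, r was 0.42 at Pura, 0.15 at Adssl1, 0.14 at Fam222b and 0.31 at Jup, so these values rest on few lines. Of the other peaks compared, the Dstn peak 32.7 kb downstream had r = 0.49 (permutation p = 0.00475), with counts in both lines of only 4 of 24 pairs. The Fam222b TSS peak had r = 0.47 (permutation p = 0.0210) and the Noct peak 29.0 kb upstream r = 0.42 (permutation p = 0.0424), none of them adjusted. At Hivep3 both lines had a count in only 8 of 24 pairs, so a relation was not detectable there at this depth.

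**Figure D5:**
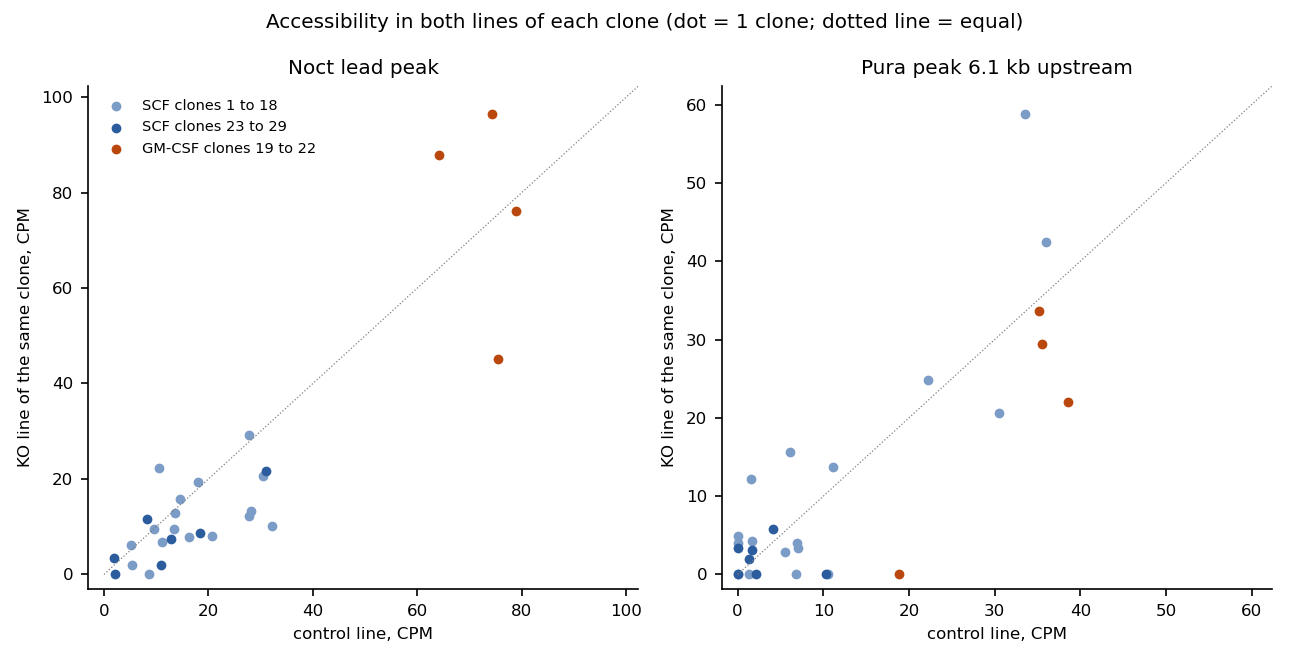
CPM in the KO line (vertical axis) against CPM in the control line (horizontal axis) of each clone at the Noct lead peak (left) and the Pura peak 6.09 kb upstream (right); dots are clones and the dotted line marks equal values. Noct values spread along the line among SCF clones below all GM-CSF clones, and at Pura 4 SCF clones lie near 3 of the GM-CSF clones, while the KO line of GM-CSF clone 19 is at 0.

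Over all 56 libraries, the locus most like Dstn was that of Actn1, an actin crosslinker (Pearson r of log2 CPM 0.89 over 56 libraries, 0.79 within the 48 SCF libraries). The most like loci of the others were Ugt1a1 for Hivep3 (0.85), Slc23a2 for Jup (0.81), Dstn for Adssl1 (0.78), Fcer2a for Fam222b (0.78), Ltbr for Noct (0.76), Spatc1 for Agpat2 (0.73) and Twf2 for Pura (0.72), each the highest of the loci on other chromosomes among 10081. These libraries share cytokine, clone and depth, so the values describe likeness in this series only.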

How the data were processed

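The 28 clone pairs (56 libraries) were profiled by ATAC-seq. The deposited values are raw counts per peak and library. Per the labels and the study's methods, the authors aligned reads to mm10 with Bowtie2 and handled them with SAMtools and Picard (versions not given in the sources used here). They counted over 301 bp peaks, from MACS2 summits supplemented by the ImmGen peak set. The counted unit (fragment or cut) and the treatment of duplicates were not given in the sources used here.

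Groups came from the treatment labels, and all columns were assigned. The genes, the lists and the tests were chosen with earlier results of these data known. Genes were placed with the GENCODE vM21 annotation, and a promoter peak lies within 1 kb of any annotated TSS, coding or not. The promoter peak of a named gene lies within 1 kb of the TSS of that gene. The lead peak has the largest difference in mean CPM between control lines. Named were the lead and carrying peaks, the promoter peak with most counts, any member called for Tet2, and the most like locus.

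edgeR 4.0.16 in R 4.3.3 was used for quasi-likelihood tests with TMM factors and filterByExpr (minimum count 10), fitted over all peaks or locus sums with Benjamini-Hochberg adjustment. Peaks were called at an adjusted p of at most 0.01 and loci under 0.05. GM-CSF was compared with SCF within KO lines, and Tet2 KO with control using the clone as a block. Sister lines come from the same clone, and their deviations from the group means correlated by 0.0152 to 0.243 over the 28 clones. SE is the absolute log2 difference divided by the square root of F. Fits were tested on simulated data. DESeq2 1.42.0, RLE factors, other filters, clone subsets, a 10 kb window and promoter share as a covariate were alternatives. Correlations used 100000 permutations. Since lines are separate clones with 1 library each, p-values cover the spread between clones, and depth limits precision because lines with few counts move in large steps. Sequences of lead peaks that overlap exons are not shown.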

Additional observations from a re-analysis of the deposited data

Results flagged for a closer look

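In 32 groups of 4 GM-CSF lines, the lead peaks and locus sums were searched for a line far from the others by Dixon's criterion, which chance meets in about 1 of 20 groups, and 3 values met it. All 3 belong to the control line of clone 20, a library of 88234 counts. The Fam222b locus sum was highest there at 346.9 CPM, where the other 3 lines had 182 to 208 CPM. The Hivep3 lead peak was highest there at 89.9 CPM, from 7 counts, where the others had 37.1 to 44.7 CPM. The Adssl1 lead peak was lowest there at 102.8 CPM, where the others had 122 to 123 CPM.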

How the results depend on the processing

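Over all peaks, 986 were called between GM-CSF and SCF KO lines. The count was 566 with DESeq2, 2396 with a minimum count of 3, 1489 with 10 counts in all as the one filter, 578 against SCF clones 23 to 29, and 350 to 1096 when 1 GM-CSF clone was left out, lowest without clone 21 (350) and clone 22 (417). For loci, 2034 were called, 1121 with the 10 kb window, and 754 to 1985 with 1 clone left out (767 without clone 21 and 754 without clone 22). The Tet2 effect in SCF clones was called at 197 peaks and 721 loci, with DESeq2 at 94 and 317, in clones 1 to 18 alone at 59 and 233, and in clones 23 to 29 alone at 0 and 30. Without the clone as a block for the pairing, it was called at 60 peaks and 414 loci, and the block changed no call at the 8 loci. In GM-CSF clones the count of peaks was 1, and 0 with DESeq2, with a minimum count of 3, without the block, and 0 to 1 with 1 clone left out. The 16 carrying peaks became 41 with a difference of at least 5 CPM and 8 with at least 20 CPM, and 13 both with pooled counts and without clones 19 and 20, the last a choice made after seeing the data, as was the pooled count.

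With the 10 kb window, the Hivep3 locus reversed to -0.17 in control and -0.20 in KO lines, Fam222b to -0.29 in control lines, and the Tet2 effect at Adssl1 in SCF clones to -0.029. In clones 23 to 29 alone the Tet2 effect at Hivep3 was -0.062. The lead peaks of Adssl1 and Dstn kept their direction and call in KO lines under all 12 alternatives. The Jup lead peak lost its call with DESeq2 (adjusted p = 0.0377), and with 10 counts in all as the one filter Jup and Pura had an adjusted p of 0.397 and 0.312. With promoter share as a covariate the adjusted p at the Hivep3 locus was 0.114. The cause of these changes was not tested.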
